A study of Mus musculus with 12 samples.

Results

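The FOS, JUN and EGR immediate early transcription factors were followed in a mouse bone cell line that was differentiated or not and treated with BIGH3 or not. The 10 genes were Fos, Fosb, Fosl1, Fosl2, Jun, Junb, Jund, Egr1, Egr2 and Egr3, taken by name from 51707 annotated genes. All 10 passed the filter on low counts, which kept 14711 genes. They were chosen by gene family with earlier results of these data known, and selected on the fold changes of Fosb and Egr1 for BIGH3 in undifferentiated cells, a comparison in which 0.0204% of all genes tested were called. Values of that comparison are therefore given as a description, without a test.

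RNA was sequenced from 12 libraries, 3 in each of 4 groups, which were differentiated BIGH3, differentiated control, undifferentiated BIGH3 and undifferentiated control. All groups carry the labels MLO-Y4, an osteocyte-like mouse line, and wild type, and all grew on collagen (type I, 0.15 mg/mL). BIGH3 is the secreted protein of the TGFBI gene, and the treated cells received the human protein made recombinantly. The medium for differentiation contained 10% serum, ascorbic acid at 50 µg/mL and β-glycerophosphate at 4 mM, and for the undifferentiated cells the labels name no medium, so state and medium cannot be told apart. The protocol text also names HCQ and an antibody to BIGH3, but no library is labelled with them. The labels state neither the dose and time of BIGH3, nor what controls received, nor if replicate libraries stem from separate cultures. Each p-value therefore measures the spread between these libraries alone, which may be technical.

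Depth was 19014492 to 27612155 estimated reads per library. Of 7 osteocyte markers, 5 to 6 had a read in a group, with a summed level of 587 to 614 CPM in differentiated BIGH3, 423 to 445 CPM in differentiated control, 386 to 414 CPM in undifferentiated BIGH3 and 380 to 392 CPM in undifferentiated control cells. CPM are counts relative to library size, scaled here between libraries by TMM. The 2 largest parts of each sum were Pdpn, at 183 to 294 CPM over the libraries, and Gja1, at 115 to 213 CPM. Fgf23 had no read in any library and Sost had reads in 2 differentiated control libraries alone, and Mepe had at most 0.90 CPM, so these late osteocyte markers were at or near 0. The osteocyte markers Dmp1 (80.1 to 95.2 CPM in differentiated BIGH3, 35.5 to 38.6 CPM in differentiated control and 51.7 to 61.9 CPM in undifferentiated cells) and Phex (20.9 to 25.6 CPM in differentiated BIGH3, 80.2 to 87.3 CPM in differentiated control and 7.21 to 9.19 CPM in undifferentiated cells) were well above 0. All 7 osteoblast markers were read, at 1681 to 3105 CPM in sum, of which Col1a1 made up 1616 to 3049 CPM. Sp7 had at most 1.16 CPM and Ibsp at most 1.70 CPM, while Runx2 had 42.25 to 53.41 CPM over the libraries. Alpl had 22.91 to 25.3 CPM in differentiated control, 6.845 to 7.891 CPM in differentiated BIGH3 and at most 1.389 CPM in undifferentiated cells. Bglap (13.25 to 13.32 CPM) and Bglap2 (24.12 to 28.05 CPM) were also highest in differentiated control cells. A prefix in the deposited names, MC3, differs from the labelled line, and which line was used was not checked further. Markers of macrophages stayed at or below 1.504 CPM in sum and those of endothelium at or below 3.46 CPM. Fat cell markers reached 2.30 to 2.69 CPM in differentiated BIGH3, 0.50 to 1.03 CPM in differentiated control and at most 0.42 CPM in undifferentiated cells. The 4 epithelial markers had 1.96 to 8.68 CPM in sum in differentiated BIGH3, 4.90 to 11.3 CPM in differentiated control, 8.19 to 11.3 CPM in undifferentiated BIGH3 and 7.92 to 19.8 CPM in undifferentiated control cells. Among them Cdh1, encoding E-cadherin, had 1.44 to 1.79 CPM in differentiated BIGH3, 4.49 to 5.99 CPM in differentiated control and 7.19 to 8.63 CPM in undifferentiated cells. The 3 chondrocyte markers (Col2a1, Acan and Sox9) all had reads and moved with the groups, at 122 to 130.1 CPM in sum in differentiated BIGH3, 199 to 205.7 CPM in differentiated control, 324 to 347 CPM in undifferentiated BIGH3 and 327 to 361 CPM in undifferentiated control cells. Muscle markers reached 2.96 CPM in differentiated BIGH3, 9.01 CPM in differentiated control and at most 0.74 CPM in undifferentiated cells. The part of these markers in the results was not tested. Some genes of a liver list, called liver transcripts below, stood out in 4 libraries. Afp, encoding alpha-fetoprotein, had 27.0 CPM in differentiated BIGH3 3, 24.9 CPM in differentiated control 2, 11.2 CPM in undifferentiated BIGH3 1 and 63.3 CPM in undifferentiated control 2. It had at most 3.64 CPM in the other libraries. Ttr and Apoa1 were highest in the same 4 libraries, with Ttr at 4.50 to 15.5 CPM there and at most 1.36 CPM elsewhere. Ahsg had 6.58 CPM in undifferentiated control 2, 3.08 CPM in differentiated BIGH3 3 and 1.09 CPM in undifferentiated BIGH3 1. In the other libraries of the undifferentiated and differentiated BIGH3 groups Ahsg had at most 0.38 CPM. Alb had at most 0.37 CPM, in undifferentiated control 2. Apoa2 had at most 0.21 CPM and Serpina1a no read in any library, so these did not stand out. Whether liver material was present was not tested. Where leaving these 4 libraries out changed a call among the 10 genes, both values are given.

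FOS and JUN proteins are basic leucine zipper factors that pair into AP-1, the dimer that binds TGANTCA elements, and FOS members need a JUN partner because they do not pair with each other. EGR proteins are zinc finger factors that bind GC-rich elements. Fos, Fosb, Egr1, Egr2 and Egr3 are classic immediate early genes, switched on briefly by serum, growth factors, stretch or adhesion through serum response factor, ternary complex factors and CREB, whereas Jund and Fosl2 are usually present more steadily. In bone, AP-1 is known for its part in osteoblast and osteoclast formation, and Fosl1 and ΔFosB raise bone formation in transgenic mice.

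The promoter stretches of 5 of the genes are shown because Fos, Fosb, Junb and Egr2 fell with differentiation in both treatments, while Jun rose with it in BIGH3 treated cells and fell with it in control cells. RefSeq (GRCm38.p6) gave promoters for 7 of the 10, which were Fos, Fosb, Fosl2, Jun, Junb, Jund and Egr2. Promoters of Egr1, Egr3 and Fosl1 were not used here. Each line holds the 250 bases before the RefSeq start, 5′ to 3′ on the gene's strand, with motif matches in capitals. Fos lies at chr12:85473640-85473889 on the plus strand, Fosb at chr7:19310046-19310295 on the minus strand, Jun at chr4:95052223-95052472 on the minus strand, Junb at chr8:84978749-84978998 on the minus strand and Egr2 at chr10:67537619-67537868 on the plus strand.
Fos: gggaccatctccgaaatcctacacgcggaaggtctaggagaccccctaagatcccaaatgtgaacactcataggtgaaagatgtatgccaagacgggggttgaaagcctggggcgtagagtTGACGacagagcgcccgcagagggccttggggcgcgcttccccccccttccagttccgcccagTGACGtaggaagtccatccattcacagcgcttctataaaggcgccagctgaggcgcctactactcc
Fosb: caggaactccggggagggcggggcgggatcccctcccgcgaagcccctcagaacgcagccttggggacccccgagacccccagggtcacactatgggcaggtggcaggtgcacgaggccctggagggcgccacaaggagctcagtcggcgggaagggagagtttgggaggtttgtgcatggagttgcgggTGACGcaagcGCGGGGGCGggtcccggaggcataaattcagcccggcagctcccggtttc
Jun: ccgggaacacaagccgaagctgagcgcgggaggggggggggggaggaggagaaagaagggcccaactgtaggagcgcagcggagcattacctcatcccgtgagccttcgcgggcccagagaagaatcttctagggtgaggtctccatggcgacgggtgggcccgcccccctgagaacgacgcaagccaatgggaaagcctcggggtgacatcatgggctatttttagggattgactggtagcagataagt
Junb: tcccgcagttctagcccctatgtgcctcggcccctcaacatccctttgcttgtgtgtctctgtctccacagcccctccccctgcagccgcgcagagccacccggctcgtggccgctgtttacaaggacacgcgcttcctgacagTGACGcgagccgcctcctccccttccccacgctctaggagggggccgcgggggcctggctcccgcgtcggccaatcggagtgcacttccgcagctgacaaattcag
Egr2: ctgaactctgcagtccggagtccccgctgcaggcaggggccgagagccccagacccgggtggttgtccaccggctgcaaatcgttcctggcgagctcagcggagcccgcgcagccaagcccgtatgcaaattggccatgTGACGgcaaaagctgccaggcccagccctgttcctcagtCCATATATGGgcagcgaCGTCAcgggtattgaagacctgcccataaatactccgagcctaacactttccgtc

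On both strands, 5 motifs were searched for, which were TGANTCA (AP-1), TGACGTCA (CREB, which contains the next motif), TGACG (the first letters of the CREB motif), GCGNGGGCG (EGR) and the CArG box bound by serum response factor. TGACG occurred in 17.8% of 32851 RefSeq promoter windows of the same length, and in Fos at 129 to 125 and 66 to 62 bases before the start. The other 3 with a match were Fosb at 60 to 56, Junb at 106 to 102 and Egr2 at 111 to 107 and at 55 to 51 bases, the last on the opposite strand. GCGNGGGCG, found in 4.70% of windows, lay at 50 to 42 bases in Fosb and at 79 to 71 bases in Fosl2. The CArG box, found in 1.47% of windows, lay at 72 to 63 bases in Egr2. TGANTCA (6.75% of windows) and TGACGTCA (1.55%) had no match in the 7 windows, and the windows of Jun and Jund held none of the 5 motifs as spelled. The RefSeq start used for Jund lies 1210 bases before the annotated start of the gene and its single transcript, and that of Fosl2 lies 671 bases after the annotated start of the gene, so these 2 windows are not the stretch next to those starts. Bases further upstream than 250 were not searched, so a gene without a match here may hold the motif there. A match is a run of letters and was not tested as a binding site.

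**Figure D1:**
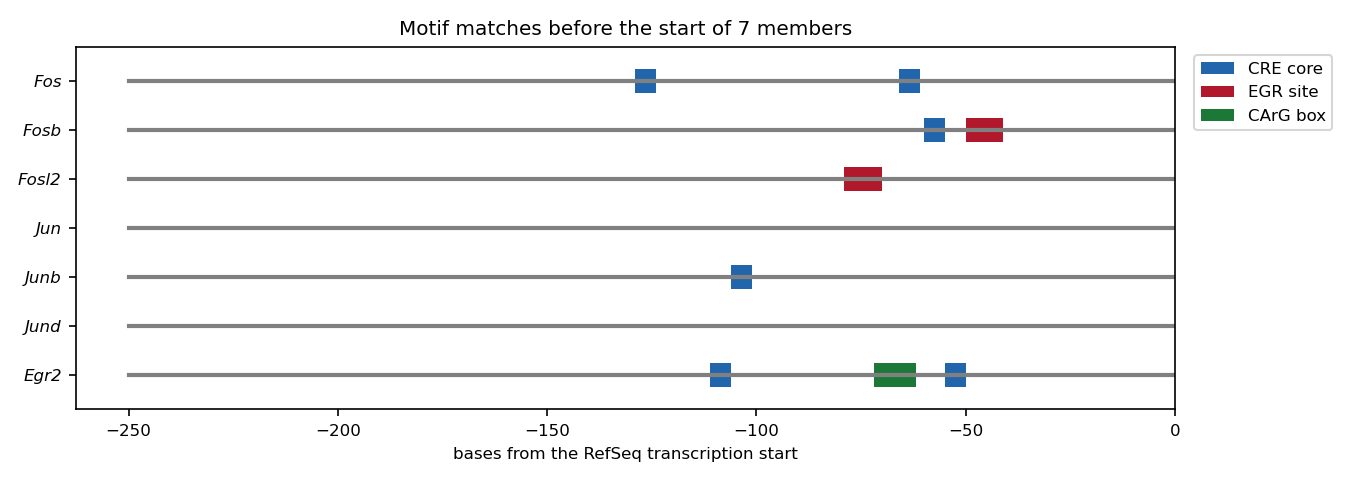
Matches to 3 of the motifs in the 250 bases before the RefSeq start of 7 genes, with distance from the start in bases on the horizontal axis. TGACG, drawn as CRE core, lay in 4 genes, the EGR motif in Fosb and Fosl2, and the CArG box in Egr2, and the lines of Jun and Jund are empty.

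Differentiated cells held far less Fos, Fosb, Egr1 and Egr2 mRNA than undifferentiated cells, with or without BIGH3. In BIGH3 treated cells 9 of the 10 genes passed the test between the states, with 6 lower and Fosl1, Fosl2 and Jun higher in differentiated cells, where 56.6% of all genes tested were called (28.9% higher and 27.7% lower). In control cells 8 passed, with 7 lower and Fosl2 higher, where 57.7% of all genes were called (29.1% higher and 28.6% lower). The rise of Fosl2 was not called in TPM in either treatment, nor with library totals in place of TMM in control cells. A gene was called at an adjusted p below 0.05 in edgeR's quasi-likelihood test. The median log2 fold change of the 10 was -0.77 in BIGH3 treated cells, beside 0.01 over all genes, and -1.20 in control cells, beside -0.01 over all genes. In bulk RNA, fewer cells that express a gene and less of its RNA per cell cannot be told apart.

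In differentiated cells BIGH3 raised some of the 10 genes and lowered others. Of the 10, 5 passed the test, with Jun, Junb and Fosl1 higher and Egr1 and Jund lower in treated cells, against 45.5% of all genes called (22.6% higher and 22.9% lower), so the share called among the 10 was near that of all genes. Without undifferentiated BIGH3 1, which enters this comparison through the shared estimate of spread, 8 of the 10 were called. Over all genes the count called was 6687, and it ran from 5896 to 6862 when 1 library was left out. The libraries did not overlap for 7 of the 10, against 55.1% of all genes. In undifferentiated cells all 10 fold changes were below 0, those of Junb and Egr3 not under every alternative setting. There, Fos, Fosb, Jun and Egr1 were lower in every treated library than in every control library, as 4.37% of all genes were. The genes were selected on Fosb and Egr1 in this comparison, so their count cannot be weighed against that share. Each library enters 1 comparison by treatment and 1 by state, so these comparisons are not independent.

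**Figure D2:**
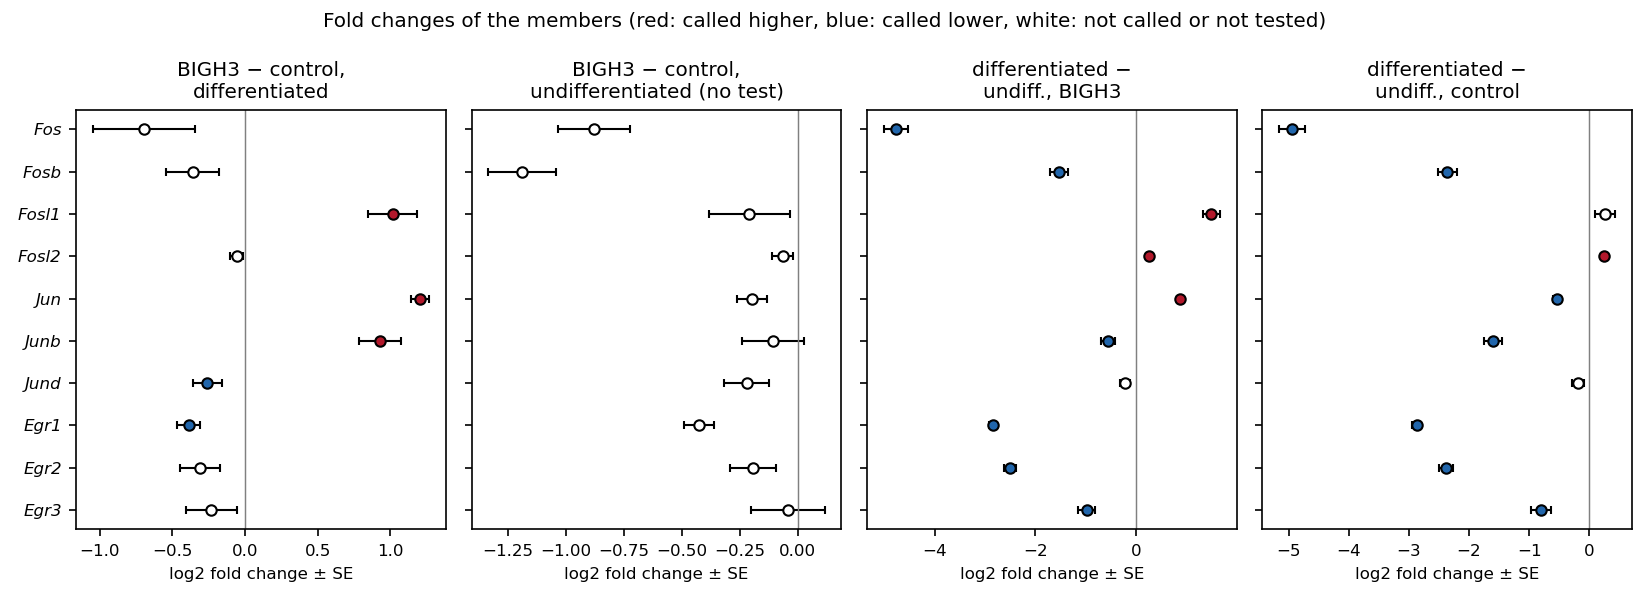
Log2 fold changes with standard errors from the fit over 12 libraries, for BIGH3 against control in each state and for differentiated against undifferentiated in each treatment; each panel has its own axis. Red points were called higher and blue points called lower, and white points were not called or, in the undifferentiated panel, not tested. Jun and Fosl1 lie right of 0 for BIGH3 in differentiated cells and left of it in undifferentiated cells, and Fos lies furthest left in both panels of differentiation.

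Fos encodes the founding member of the FOS family (chromosome 12, 85473890 to 85477273, plus strand, GRCm38). It reached 1.19, 1.39 and 1.51 CPM in differentiated BIGH3 cells and 1.94, 2.83 and 1.83 CPM in differentiated control cells. It reached 47.7, 33.0 and 30.1 CPM in undifferentiated BIGH3 cells and 73.1, 68.7 and 62.2 CPM in undifferentiated control cells. None of the 4 groups overlapped, and every differentiated library was below every undifferentiated one. Fos fell in differentiated cells, at -4.77 ± 0.24 on the log2 scale (SE, 27.2-fold lower, adjusted p = 2.596e-08) with BIGH3 and at -4.95 ± 0.22 (31.0-fold lower, adjusted p = 6.127e-09) without it. For BIGH3 in differentiated cells the log2 fold change was -0.69 ± 0.35 and was not called (adjusted p = 0.1375). It was called in 7 of 22 alternative settings, among them DESeq2 (adjusted p = 0.03325), TPM with either pseudocount and the fit without undifferentiated BIGH3 1 (adjusted p = 0.006931). In undifferentiated cells the mean was 36.9 ± 9.43 CPM with BIGH3 and 68.0 ± 5.45 CPM in control (SD, n = 3 each), a log2 fold change of -0.88 ± 0.16. The highest treated library, undifferentiated BIGH3 1, was also the one of its group with liver transcripts, and without it the fold change was -1.11.

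Fosb encodes the FOS family member whose short splice form is ΔFosB (chromosome 7, 19302696 to 19310051, minus strand). It reached 5.79, 5.45 and 7.22 CPM in differentiated BIGH3 cells and 7.73, 7.12 and 8.79 CPM in differentiated control cells. It reached 22.5, 16.9 and 14.0 CPM in undifferentiated BIGH3 cells and 43.5, 41.9 and 36.5 CPM in undifferentiated control cells. The differentiated groups overlapped in a single pair of libraries, while the undifferentiated groups were far apart. Fosb fell in differentiated cells, at -1.54 ± 0.17 (adjusted p = 5.582e-06) with BIGH3 and at -2.37 ± 0.16 (adjusted p = 3.11e-08) without it. Between BIGH3 and control the log2 fold change was -0.36 ± 0.18 in differentiated cells (adjusted p = 0.1335) and -1.19 ± 0.15 in undifferentiated cells. The first was called in 7 of 22 alternative settings, among them the fits without undifferentiated BIGH3 1 (adjusted p = 0.02623) or 3 (adjusted p = 0.04752), and it was -0.75 with effective length offsets. With the 4 libraries richest in liver transcripts left out it was -0.551 and was called (adjusted p = 0.0061).

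Fosl1 encodes FRA-1, which lacks the activation domain of FOS (chromosome 19, 5447547 to 5455946, plus strand). It was a low gene, with 10.9, 10.6 and 9.18 CPM in differentiated BIGH3 cells and 5.09, 4.06 and 6.04 CPM in differentiated control cells. It had 4.58, 2.95 and 3.40 CPM in undifferentiated BIGH3 cells and 3.75, 4.45 and 4.43 CPM in undifferentiated control cells. The differentiated BIGH3 libraries stood above the other 9 libraries. Fosl1 rose with BIGH3 in differentiated cells, with a log2 fold change of 1.02 ± 0.17 (adjusted p = 4.104e-05), and rose with differentiation in BIGH3 treated cells, at 1.49 ± 0.17 (adjusted p = 2.743e-07). In control cells the states overlapped, at 0.26 ± 0.17 (adjusted p = 0.2042) in counts and -0.09 in log2(TPM + 1). Ccdc85b lies on the opposite strand over 2767 bases of Fosl1 and had 344 to 742 reads in a library against 63 to 240 for Fosl1. The strand of the libraries was not given, so reads of the overlap were not told apart. The range of Ccdc85b was 432 to 584 reads in differentiated BIGH3 cells and 457 to 613 reads in differentiated control cells.

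Fosl2 encodes FRA-2, known for its part in cartilage and bone growth (chromosome 5, 32135801 to 32157842, plus strand). It varied little, at 177, 177 and 186 CPM in differentiated BIGH3, 186, 191 and 184 CPM in differentiated control, 151, 149 and 151 CPM in undifferentiated BIGH3 and 164, 157 and 151 CPM in undifferentiated control cells. Fosl2 rose in differentiated cells by 0.26 ± 0.05 in BIGH3 treated (adjusted p = 6.579e-05) and by 0.25 ± 0.04 in control cells (adjusted p = 8.435e-05). In log2(TPM + 1), which accounts for transcript length and uses no TMM scaling, the difference was 0.04 in BIGH3 treated and -0.04 in control cells and neither was called. With library totals in place of TMM the control value was 0.101 and was not called (adjusted p = 0.08445). On the TPM scale the median of all genes also shifted, by -0.20 in BIGH3 treated and -0.28 in control cells. Between BIGH3 and control the libraries overlapped in both states, at -0.06 ± 0.05 in differentiated (adjusted p = 0.3321) and -0.07 ± 0.05 in undifferentiated cells.

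Jun encodes the founding JUN protein, the strongest activator among the 3 partners of FOS proteins (chromosome 4, 95049034 to 95052222, minus strand). It reached 242, 227 and 204.8 CPM in differentiated BIGH3 cells and 99.4, 98.0 and 94.8 CPM in differentiated control cells. It reached 133, 116 and 119 CPM in undifferentiated BIGH3 cells and 136, 137 and 149.8 CPM in undifferentiated control cells. Differentiated BIGH3 libraries were the highest and differentiated control libraries the lowest of the 4 groups, with no overlap between any of them. The gap between the undifferentiated groups was smaller than either group's SD. Jun rose with BIGH3 in differentiated cells, to 224 ± 18.6 CPM against 97.4 ± 2.38 CPM in control (SD, n = 3 each), a log2 fold change of 1.20 ± 0.06 (adjusted p = 2.349e-12). In undifferentiated cells the means were 123 ± 9.15 CPM with BIGH3 and 141 ± 7.85 CPM in control, a log2 fold change of -0.20 ± 0.06. With differentiation Jun rose by 0.87 ± 0.06 in BIGH3 treated cells (adjusted p = 2.538e-10) and fell by 0.53 ± 0.06 in control cells (adjusted p = 4.227e-07). The antisense gene Junos overlaps 689 bases of Jun and had 12.9 to 49.1 reads in a library, against 2071 to 5305 for Jun.

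Junb encodes a JUN protein with weaker activation than JUN that often acts against it (chromosome 8, 84974484 to 84978718, minus strand). It reached 52.6, 51.9 and 47.2 CPM in differentiated BIGH3 cells and 27.2, 26.8 and 25.7 CPM in differentiated control cells. It reached 85.3, 69.9 and 69.2 CPM in undifferentiated BIGH3 cells and 68.9, 72.8 and 99.5 CPM in undifferentiated control cells. The differentiated groups were apart by more than their whole spread, and the undifferentiated groups overlapped widely. Junb rose with BIGH3 in differentiated cells by 0.93 ± 0.15 on the log2 scale (adjusted p = 0.0005093), and its fold change in undifferentiated cells was -0.11 ± 0.13, which turned to 0.08 without undifferentiated control 3. It fell with differentiation, at -0.56 ± 0.14 in BIGH3 treated cells (adjusted p = 0.005688) and at -1.60 ± 0.14 in control cells (adjusted p = 4.829e-06). With the 4 libraries richest in liver transcripts left out, the value in BIGH3 treated cells was -0.41 and was not called (adjusted p = 0.07802). Prdx2 overlaps 351 bases on the opposite strand, at the minor transcript Junb-202, which had at most 4.0 summed reads in a group.

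Jund encodes the JUN protein that is usually present in resting cells (chromosome 8, 70698949 to 70700616, plus strand). It reached 56.3, 52.0 and 50.0 CPM in differentiated BIGH3 cells and 69.2, 62.4 and 58.2 CPM in differentiated control cells. It reached 71.2, 53.4 and 60.9 CPM in undifferentiated BIGH3 cells and 70.2, 67.5 and 78.3 CPM in undifferentiated control cells. The differentiated groups did not overlap, but the gap between them was smaller than either group's SD. Jund fell with BIGH3 in differentiated cells, at -0.26 ± 0.10 (adjusted p = 0.048), a call that 11 of 22 alternative settings lost. Among these were the fits without differentiated BIGH3 2 or 3, without differentiated control 1 or 2, without undifferentiated BIGH3 3 and without undifferentiated control 1, with adjusted p between 0.06241 and 0.1557. The call was also lost with the 3 libraries richest in liver transcripts left out (-0.25, adjusted p = 0.1817) and with 4 left out (-0.234, adjusted p = 0.05864). With differentiation the fold change was -0.23 ± 0.10 in BIGH3 treated cells (adjusted p = 0.0673) and -0.19 ± 0.10 in control cells (adjusted p = 0.1207), each called in 9 of 22 alternative settings. Single libraries that decided these calls were undifferentiated BIGH3 2 (-0.33 without it, adjusted p = 0.005109) and differentiated control 1 (adjusted p = 0.04983) in BIGH3 treated cells, and undifferentiated BIGH3 1 (adjusted p = 0.03632) and 2 (adjusted p = 0.04754) in control cells. Gm11175 overlaps 919 bases on the opposite strand, with 14.0 to 27.1 reads in differentiated BIGH3 and 22.0 to 50.0 reads in differentiated control libraries.

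**Figure D3:**
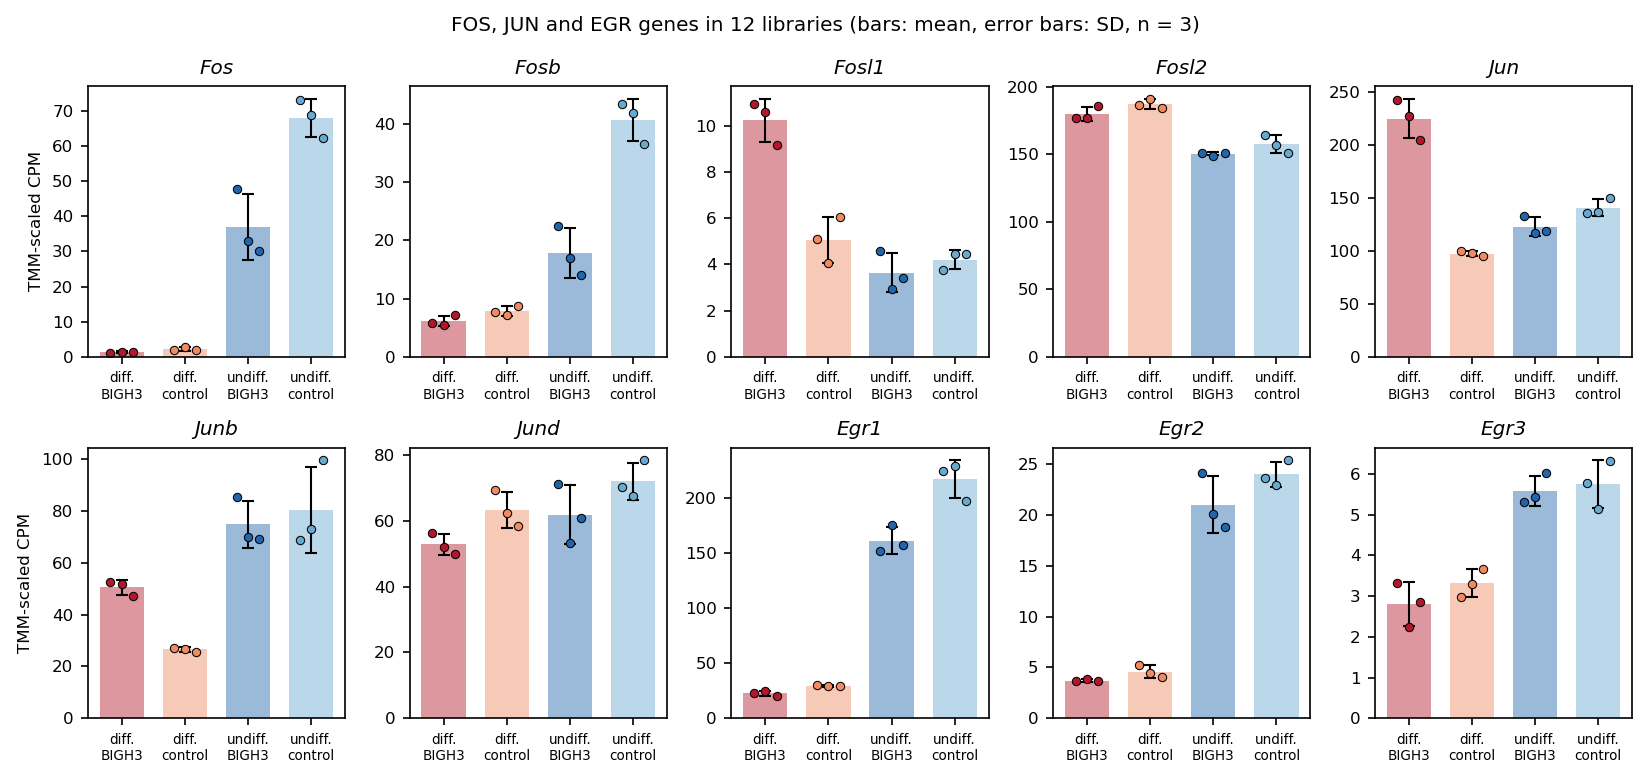
TMM-scaled CPM of the 10 genes in 12 libraries, with bars at the group mean, error bars at 1 SD (n = 3) and a point per library; each panel has its own axis from 0. Fos, Fosb, Egr1 and Egr2 are low in both differentiated groups, and Jun and Fosl1 are highest in differentiated BIGH3 cells.

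Egr1 had the most TPM of the 3 EGR genes in each group (chromosome 18, 34859823 to 34864984, plus strand). It reached 23.0, 24.3 and 20.3 CPM in differentiated BIGH3 cells and 30.3, 29.2 and 29.0 CPM in differentiated control cells. It reached 151, 175 and 157 CPM in undifferentiated BIGH3 cells and 224, 229 and 197 CPM in undifferentiated control cells. No pair of groups overlapped, and in both states the treated libraries were the lower ones. Egr1 fell in differentiated cells, at -2.84 ± 0.07 with BIGH3 (7.14-fold lower, adjusted p = 1.56e-16) and at -2.88 ± 0.07 without it (7.34-fold lower, adjusted p = 1.016e-16). It fell with BIGH3 in differentiated cells, at -0.39 ± 0.08 (adjusted p = 0.0005555), and the fold change was -0.43 ± 0.06 in undifferentiated cells.

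Egr2, known from Schwann cell myelination and hindbrain patterning, lies on chromosome 10 (67535475 to 67542188, plus strand). It reached 3.65, 3.85 and 3.64 CPM in differentiated BIGH3 cells and 5.25, 4.48 and 4.03 CPM in differentiated control cells. It reached 24.1, 20.03 and 18.8 CPM in undifferentiated BIGH3 cells and 23.6, 22.9 and 25.3 CPM in undifferentiated control cells. The states were far apart, while the undifferentiated groups overlapped. Egr2 fell in differentiated cells, at -2.50 ± 0.12 with BIGH3 (adjusted p = 3.047e-13) and at -2.38 ± 0.11 without it (adjusted p = 3.055e-13). For BIGH3 the fold change was -0.31 ± 0.14 in differentiated cells (adjusted p = 0.07013) and -0.19 ± 0.10 in undifferentiated cells. The first was called in 2 of 22 alternative settings, without undifferentiated BIGH3 1 (adjusted p = 0.04732) and without differentiated control 3 (adjusted p = 0.03265).

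Egr3, known from muscle spindle formation, lies on chromosome 14 (70077203 to 70082614, plus strand) and had 42 to 181 reads in a library. It reached 3.33, 2.25 and 2.85 CPM in differentiated BIGH3 cells, 2.98, 3.30 and 3.66 CPM in differentiated control cells, 5.31, 5.43 and 6.01 CPM in undifferentiated BIGH3 cells and 5.77, 5.15 and 6.32 CPM in undifferentiated control cells. Every differentiated library was below every undifferentiated library. Egr3 fell in differentiated cells, at -0.98 ± 0.17 with BIGH3 (adjusted p = 5.04e-05) and at -0.80 ± 0.17 without it (adjusted p = 0.0003318). Its fold change for BIGH3 was -0.23 ± 0.18 in differentiated cells (adjusted p = 0.301) and -0.04 ± 0.16 in undifferentiated cells, which turned to 0.05 with effective length offsets and to 0.03 without undifferentiated control 3.

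The fold change for BIGH3 lay furthest apart between the states for the 3 genes that rose with BIGH3 in differentiated cells. The log2 fold change in differentiated cells minus that in undifferentiated cells was 1.40 ± 0.09 for Jun, 1.23 ± 0.24 for Fosl1 and 1.04 ± 0.20 for Junb (SE). It was 0.83 ± 0.24 for Fosb and 0.19 ± 0.40 for Fos. With effective length offsets these were 0.36 for Fosb and -0.172 for Fos, and without the 4 libraries richest in liver transcripts the value of Fos was 0.541. For the remaining genes it lay between -0.19 ± 0.24 (Egr3) and 0.04 ± 0.10 (Egr1). These differences were not tested, because they hold the comparison that was known when the genes were chosen.

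Levels between genes were compared in TPM, which divides by transcript length. In differentiated BIGH3 cells Jun led with 96.7 ± 6.71 TPM (SD, n = 3), followed by Jund with 61.8 ± 3.78 TPM, Junb with 45.8 ± 2.05 TPM and Fosl2 with 34.6 ± 1.84 TPM, with no overlap between neighbours. In differentiated control cells Jund led with 70.4 ± 5.83 TPM, and Jun followed with 41.2 ± 2.11 TPM and Fosl2 with 35.1 ± 1.81 TPM, again with no overlap between neighbours. Fos was ninth in differentiated BIGH3 cells with 1.05 ± 0.30 TPM, overlapping Egr3 at 0.99 ± 0.26 TPM, and eighth in differentiated control cells with 2.03 ± 0.60 TPM, overlapping Egr2 at 1.92 ± 0.32 TPM. In undifferentiated BIGH3 cells Jund (88.5 ± 8.80 TPM), Junb (81.8 ± 8.06 TPM) and Egr1 (76.8 ± 4.83 TPM) led, each overlapping the next. In undifferentiated control cells Egr1 led with 107 ± 8.68 TPM, and the order of Egr1, Jund, Junb, Jun and Fos was one in which each neighbouring pair overlapped.

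Summed by family, FOS members held 46.3 ± 2.08 TPM in differentiated BIGH3, 44.4 ± 2.11 in differentiated control, 80.3 ± 12.7 in undifferentiated BIGH3 and 124 ± 4.98 in undifferentiated control cells. JUN members held 204.3 ± 12.3 TPM in differentiated BIGH3, 135 ± 8.45 in differentiated control, 233 ± 20.9 in undifferentiated BIGH3 and 259 ± 30.7 in undifferentiated control cells. EGR members held 11.7 ± 0.47 TPM in differentiated BIGH3, 14.7 ± 0.95 in differentiated control, 89.7 ± 4.31 in undifferentiated BIGH3 and 123 ± 6.29 in undifferentiated control cells. The FOS sums of the differentiated groups overlapped, while their JUN sums were apart, from 194 to 218 TPM with BIGH3 and from 126 to 143 TPM in control. Of the summed AP-1 mRNA, Jun took 38.5 ± 1.06% in differentiated BIGH3 and 23.0 ± 0.28% in differentiated control cells. Jund took 24.7 ± 0.42% in differentiated BIGH3 and 39.3 ± 1.20% in differentiated control cells. Fos took 0.42 ± 0.13% in differentiated BIGH3, 1.13 ± 0.31% in differentiated control, 11.2 ± 1.80% in undifferentiated BIGH3 and 17.5 ± 1.76% in undifferentiated control cells. Protein was not measured, so these are shares of mRNA and not of dimers.

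**Figure D4:**
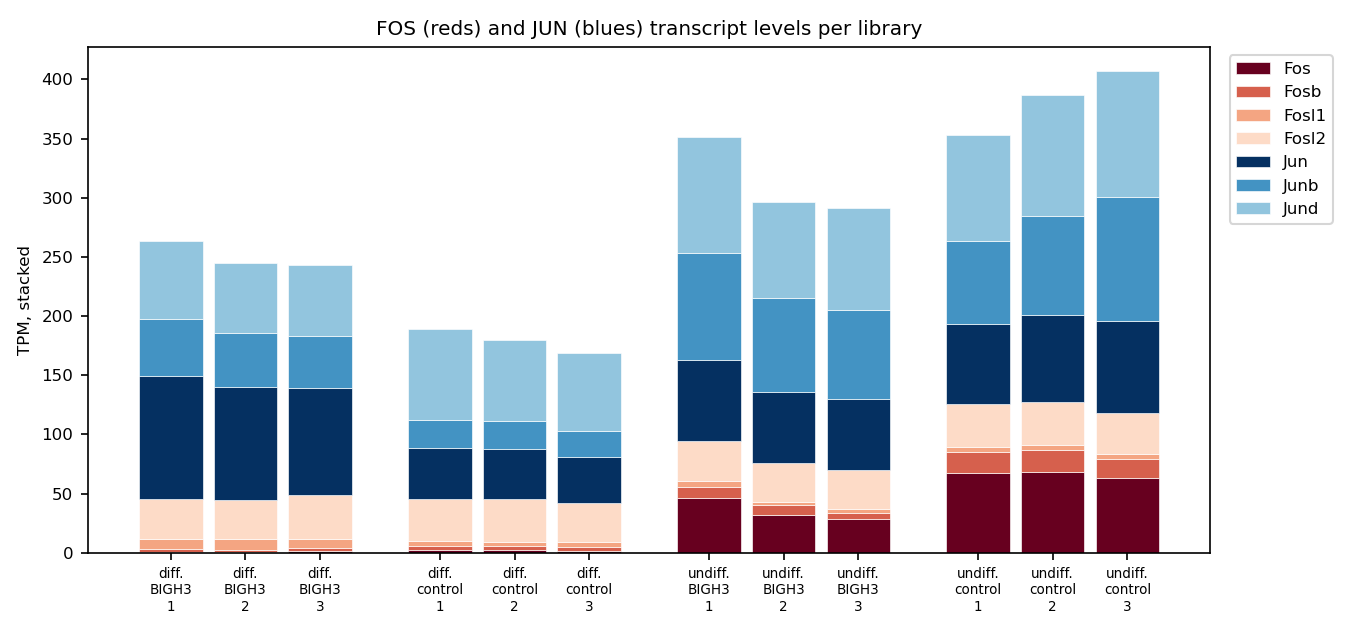
Stacked TPM of the 4 FOS (reds) and 3 JUN (blues) genes in each library, with the TPM of the stack on the vertical axis from 0. The dark red Fos block is seen in undifferentiated libraries alone, and the dark blue Jun block is largest in differentiated BIGH3 libraries, at 90.8 to 104 TPM.

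The 10 genes had 34 annotated transcripts, of which 28 had a read in some library and Jun and Jund had a single one each. Salmon divides reads that transcripts share by a model, so the transcript levels are estimates, given without a test. The coding transcript Fos-201 held 65.7 ± 1.85% of Fos TPM in undifferentiated BIGH3 and 67.3 ± 4.28% in undifferentiated control cells. The rest was the processed transcript Fos-203, at 12.2 ± 3.55 TPM in undifferentiated BIGH3 and 21.6 ± 2.23 TPM in undifferentiated control cells. In differentiated cells Fos-203 had 2.4 summed reads with BIGH3 and no read in control. Egr1-202 held 87.6 ± 3.57% of Egr1 TPM in differentiated BIGH3, 85.5 ± 2.82% in differentiated control, 89.5 ± 1.92% in undifferentiated BIGH3 and 91.1 ± 1.06% in undifferentiated control cells, so its share varied little.

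Fosb had 7 transcripts, and a single-exon one that keeps 2 introns of Fosb-201 varied with the state. This transcript, Fosb-204, held 20.2 ± 5.07% of Fosb TPM in differentiated BIGH3, 13.2 ± 2.48% in differentiated control, 32.4 ± 6.72% in undifferentiated BIGH3 and 39.9 ± 2.03% in undifferentiated control cells. Its level was 0.43 ± 0.15 TPM in differentiated BIGH3, 0.45 ± 0.06 TPM in differentiated control, 2.51 ± 1.07 TPM in undifferentiated BIGH3 and 6.83 ± 0.86 TPM in undifferentiated control cells. Fosb-205 had no read in any differentiated library and ranged from 0 to 4.43 TPM in undifferentiated BIGH3 and from 0 to 9.10 TPM in undifferentiated control cells. Within a group the split between Fosb-201 and Fosb-205 was erratic, with Fosb-201 at 10.7 to 67.2% of Fosb TPM in undifferentiated BIGH3 and 5.33 to 54.0% in undifferentiated control cells.

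ΔFosB arises when 140 bases of the last exon are spliced out, which shifts the reading frame and shortens the protein. This stretch is absent from Fosb-206 and Fosb-207 and lies at chr7:19305007-19305146 on the minus strand of GRCm38. It is shown, with the splice site bases GT and AG in capitals, because it separates the short form from the full one.
Fosb excised stretch: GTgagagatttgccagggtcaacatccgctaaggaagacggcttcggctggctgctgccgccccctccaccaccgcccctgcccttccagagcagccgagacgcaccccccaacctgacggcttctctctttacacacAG
Transcripts without these bases had 13.1, 0.0 and 0.0 estimated reads in differentiated BIGH3 and 24.2, 17.7 and 8.5 in differentiated control cells. They had 2.4, 16.1 and 1.9 in undifferentiated BIGH3 and 56.3, 6.6 and 19.2 in undifferentiated control cells. Their share of Fosb TPM ran from 0.0 to 10.9% in differentiated BIGH3, 16.9 to 38.1% in differentiated control, 1.77 to 17.5% in undifferentiated BIGH3 and 2.71 to 6.41% in undifferentiated control cells. At so few reads the short form was not compared between groups.

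**Figure D5:**
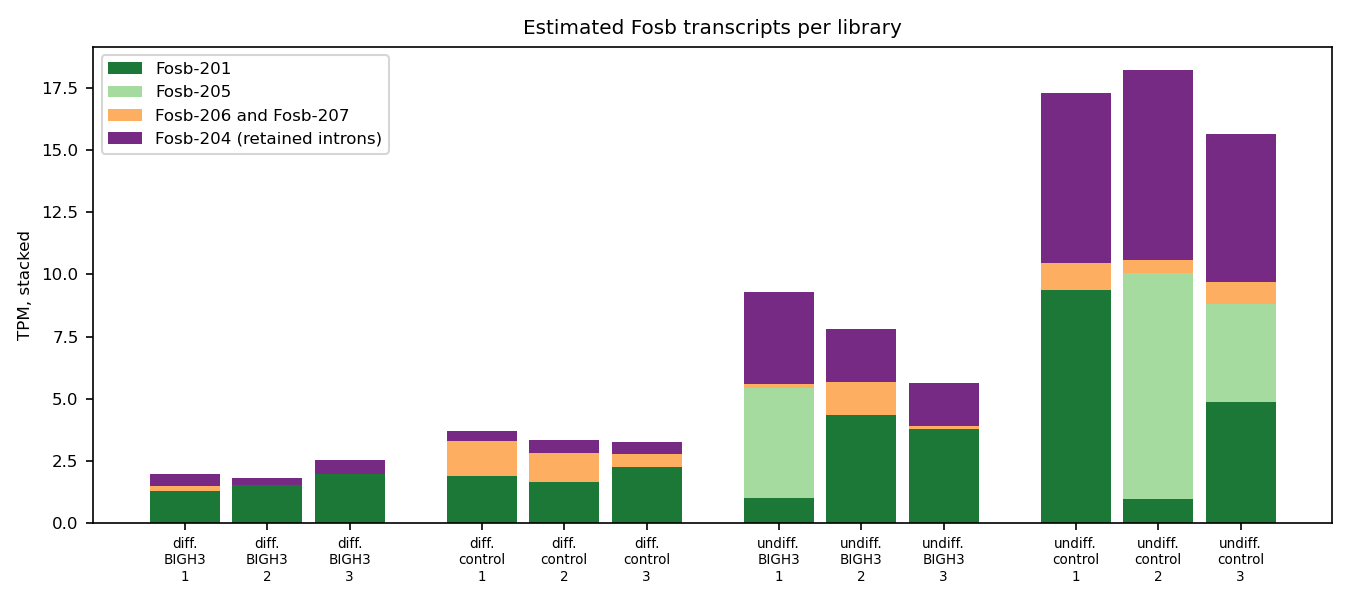
Estimated TPM of the Fosb transcripts, stacked by library, with the TPM of the stack on the vertical axis from 0. The retained-intron transcript Fosb-204 is at 5.96 to 7.68 TPM in undifferentiated control libraries and at most 0.55 TPM in differentiated libraries, and Fosb-205 is seen in undifferentiated libraries alone.

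Genes around the 10 were read from lists of AP-1 partners, EGR partners, upstream factors, MAP kinases and textbook targets. Of 9 tested AP-1 partners and small bZIP factors, BIGH3 in differentiated cells raised Maff and Mafg and lowered 4 (Atf7, Jdp2, Maf and Mafk), against 45.5% of all genes called, and the median log2 fold change was -0.25 against -0.01 over all genes. Jdp2, a repressor that pairs with JUN, fell by 0.64 ± 0.07 with BIGH3 in differentiated cells (adjusted p = 2.27e-07), where its mean was 30.3 ± 1.20 CPM against 47.1 ± 2.06 CPM in control. The small MAF protein genes split, since Mafk fell by 0.60 ± 0.09 (adjusted p = 1.352e-05) and Mafg rose by 0.32 ± 0.06 (adjusted p = 0.0001913). With differentiation 3 of the 9 rose and 3 fell in BIGH3 treated cells, and 4 rose and 1 fell in control cells, against 56.6% of all genes called in BIGH3 treated and 57.7% in control cells.

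Nab1 and Nab2 encode corepressors of EGR proteins, and both rose with BIGH3 in differentiated cells, Nab1 by 0.50 ± 0.07 (adjusted p = 1.018e-05) and Nab2 by 0.20 ± 0.06 (adjusted p = 0.01092). Nab2, itself a known EGR target, fell with differentiation, at -0.35 ± 0.06 in BIGH3 treated cells (adjusted p = 5.135e-05) and at -0.66 ± 0.06 in control cells (adjusted p = 9.087e-09). Nab1 rose in both. Of 8 tested genes of serum response factor, its cofactors and CREB, BIGH3 in differentiated cells raised Elk3, at 0.22 ± 0.05 (adjusted p = 0.001052), and Mrtfb, at 0.25 ± 0.08 (adjusted p = 0.01138), and lowered none, where 45.5% of all genes were called. The MRTF-A gene Mrtfa fell with differentiation, at -1.47 ± 0.31 in control cells (adjusted p = 0.003318), and its value in BIGH3 treated cells was -0.27 ± 0.30 and was not called (adjusted p = 0.4883).

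Of 15 tested MAP kinase and MAP kinase kinase genes, 2 rose and 4 fell with BIGH3 in differentiated cells, a share near the 45.5% of all genes called. Map2k6, which activates p38, had the largest fold change of the 6, with 6.52 ± 0.17 CPM with BIGH3 and 15.2 ± 0.73 CPM in control, a log2 fold change of -1.22 ± 0.12 (adjusted p = 5.427e-08). Map2k1, the MEK1 gene, fell by 0.31 ± 0.06 (adjusted p = 0.0001713), and Map2k7, which activates JNK, rose by 0.23 ± 0.06 (adjusted p = 0.005602). With differentiation, 1 rose and 7 fell in BIGH3 treated cells, and 4 rose and 9 fell in control cells, against 56.6% of all genes called in BIGH3 treated and 57.7% in control cells. These are mRNA levels and say nothing of kinase activity.

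Among 12 tested textbook AP-1 targets, BIGH3 in differentiated cells raised 9 and lowered Hmox1, against 45.5% of all genes called (22.6% higher and 22.9% lower). The median log2 fold change was 1.10 against -0.01 over all genes, in a list chosen with results of these data known. Mmp13, the collagenase of bone and cartilage, averaged 155 ± 6.95 CPM in differentiated BIGH3 and 43.2 ± 1.40 CPM in differentiated control cells, a log2 fold change of 1.84 ± 0.07 (adjusted p = 2.827e-14). Ccl2, a monocyte chemokine, averaged 579 ± 71.8 CPM in differentiated BIGH3 and 86.2 ± 2.59 CPM in differentiated control cells, at 2.75 ± 0.08 (adjusted p = 2.693e-13). Spp1, encoding osteopontin, rose by 1.72 ± 0.04 (adjusted p = 2.882e-17) and Mmp9, encoding gelatinase B, by 1.60 ± 0.09 (adjusted p = 2.134e-12). In undifferentiated cells the median of the same 12 genes was 0.00. With differentiation 8 rose and 2 fell in BIGH3 treated cells, and 6 rose and 5 fell in control cells, against 56.6% of all genes called in BIGH3 treated and 57.7% in control cells.

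Of 10 tested textbook EGR targets, 3 rose and 1 fell with BIGH3 in differentiated cells, a share near the 45.5% of all genes called, with a median of 0.04 against -0.01 over all genes. F3, the tissue factor gene, rose by 0.39 ± 0.04 (adjusted p = 1.297e-07) and Pdgfa by 0.33 ± 0.07 (adjusted p = 0.0002829), while Thbs1, encoding thrombospondin-1, fell by 0.21 ± 0.05 (adjusted p = 0.0006054). With differentiation 5 rose and 4 fell, both in BIGH3 treated cells (56.6% of all genes called) and in control cells (57.7%).

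Genes with the pattern most like that of Fos, Fosb and Egr1 were found among 10304 genes by the root mean square difference of centred log2 CPM over the 12 libraries. The 10 genes themselves, predicted gene models (Gm and Rik symbols) and genes with a mean log2 CPM below 2 were left out of this search. For Egr1, whose own SD was 1.51, the nearest were Zfp36 at 0.30, Ier2 at 0.32, Sox11 at 0.40, Ces2g at 0.42 and Ndrg1 at 0.46. For Fosb, with an SD of 1.13, they were Col20a1 at 0.35, Zfp36 at 0.42, Cyp2j12 at 0.46, Ndrg1 at 0.46 and L1cam at 0.47. For Fos, with an SD of 2.54, the nearest were Ier2 at 1.19, Zfp36 at 1.26, Sox11 at 1.30, Col28a1 at 1.35 and Col2a1 at 1.38. None of the genes searched followed the full range of Fos. Ier2, itself an immediate early gene, averaged 9.70 CPM in differentiated BIGH3, 15.9 CPM in differentiated control, 63.7 CPM in undifferentiated BIGH3 and 79.0 CPM in undifferentiated control cells. Zfp36, encoding the mRNA-destabilising protein tristetraprolin, averaged 12.7 CPM in differentiated BIGH3, 13.3 CPM in differentiated control, 58.7 CPM in undifferentiated BIGH3 and 76.1 CPM in undifferentiated control cells.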

How the data were processed

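RNA from 12 libraries was prepared with a KAPA kit, per the labels. Per the submitters' processing notes, Salmon, cutadapt, FastQC and StringTie were used with mm10, and their versions are not stated there. The deposited tables, 1 per library, hold estimated counts (expected counts that need not be whole) and TPM for 147828 transcripts, per the file headers. Of these, 137063 (92.7%) matched the GENCODE M21 annotation of GRCm38 by identifier without its version. The rest, with 1.28% to 3.67% of a library's reads, were left out. Reads were added up over the transcripts of a gene, rounded, filtered with filterByExpr and TMM-scaled. For the fit edgeR 4.0.16 was used (R 4.3.3, robust quasi-likelihood, 4 group terms, 8 residual degrees of freedom). Tests were two-sided, with p-values adjusted by Benjamini-Hochberg over 14711 genes and calls at an adjusted p below 0.05. Standard errors were worked back from the F statistic of each gene, and the biological coefficient of variation was 8.18%. Replicates of a group differed beyond sampling noise. Alternatives were DESeq2 1.42.0, library totals, no filter, a replicate block, effective length offsets, limma 3.58.1 on log2(TPM + 1) or log2(TPM + 0.1), the compared groups alone, each library left out, and the 3 or 4 libraries with most liver transcripts left out. The genes and lists were chosen with earlier results of these data known. Of each list, up to 4 genes called in some tested comparison are given with values, by smallest adjusted p for BIGH3 in differentiated cells. Genes alike in pattern were the 5 nearest with a mean log2 CPM of at least 2, without the 10 genes themselves and predicted gene models. Figures were drawn with matplotlib 3.10.9.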

Additional observations from a re-analysis of the deposited data

Results flagged for a closer look

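Jun was higher with BIGH3 in differentiated cells and slightly lower with it in undifferentiated cells. Its level was higher with BIGH3 than in control in every differentiated library (204.8 to 242 CPM against 94.8 to 99.4 CPM) and lower in every undifferentiated library (116 to 133 CPM against 136 to 149.8 CPM). In undifferentiated cells the gap between the groups was smaller than either group's SD, and that fold change was not tested. The log2 fold change in differentiated cells exceeded that in undifferentiated cells by 1.403 ± 0.089 (SE). The same 12 libraries, read the other way, show Jun higher in differentiated than in undifferentiated cells in every BIGH3 treated library and lower in every control library, which is the same difference of 1.403. The difference was not tested.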

How the results depend on the processing

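The 22 alternatives kept the direction of Fos, Fosb, Egr1, Egr2, Egr3, Junb and Jun in each of the 3 tested comparisons. For BIGH3 in differentiated cells the count called among the 10 genes was 5 and ran from 4 to 8 when 1 library was left out (8 without undifferentiated BIGH3 1). The count over all genes was 6687 and ran from 5896 to 6862. In control cells, log2(TPM + 1) and log2(TPM + 0.1) turned the differentiation effect of Fosl1 to -0.094 and -0.116 and that of Fosl2 to -0.036 and -0.037, and the median of all genes shifted by -0.284 and -0.294. Library totals in place of TMM shifted that median by -0.149. Of descriptions without a test, the undifferentiated fold change of Egr2 moved to -0.366 with length offsets, to -0.396 and -0.425 in TPM with a pseudocount of 1 and 0.1, and to -0.336 without the 4 libraries richest in liver transcripts. The difference of the BIGH3 fold changes between the states moved with length offsets to -0.172 for Fos, 0.36 for Fosb and 0.047 for Egr2. In TPM with a pseudocount of 1 and 0.1 it moved to 0.576 and 0.494 for Fosb, 0.071 and 0.072 for Fosl2, and 0.22 and 0.166 for Egr2. With the 3 libraries richest in liver transcripts left out it was 0.602 for Fosb, and without 4 it was 0.541 for Fos, 1.552 for Jun, 1.263 for Junb, 0.145 for Jund and 0.022 for Egr2. With single libraries left out it ran from 0.851 to 1.142 for Junb, lowest without undifferentiated control 3. The cause of these moves was not tested. Over all genes, 3 were called for BIGH3 in undifferentiated cells (599 at an unadjusted p below 0.05), 8 with DESeq2, 21 without the filter, 5 without the 4 libraries richest in liver transcripts and 0 or 1 under 12 others, among them the compared groups alone. Same-numbered libraries of different groups correlated at r between -0.224 and 0.35, over 0.1 in 4 of 18 pairs. A library correlated best with its own number in 9 of 36 cases, so no general pairing by number was seen. The highest r, 0.35, was between undifferentiated control 2 and differentiated control 2, which were both among the libraries with high Afp. Whether same-numbered libraries share a culture or batch was not tested. With the replicate block 5 of the 10 genes were called for BIGH3 in differentiated cells. For differentiation, 10 were called in BIGH3 treated cells, with Jund added at -0.224 (adjusted p = 0.02514), and 9 in control cells, with Jund added at -0.19 (adjusted p = 0.04617). Over the 22 alternatives, the count called among all genes ran from 5145 to 6862, from 7256 to 8467 and from 7414 to 8829 in these 3 comparisons. Fos at 26 reads and Egr3 at 42 reads in their lowest libraries set the limit of depth here.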
